A study of Mus musculus with 4 samples.

Results

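Microglia and macrophage marker genes are 31 genes used as markers of the macrophages of the brain. They were taken by gene name from the deposited table of 28193 genes, and all 31 were found in it. Of these, 27 mark microglia and 4 (Mrc1, Pf4, Cd163 and Lyz2) mark macrophages at the borders of the brain or blood-derived myeloid cells. The 4 border genes were kept apart throughout. Whether the reads of the members came from macrophages or from other cells was not tested.

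The libraries came from fosTRAP-seq, in which mRNA bound to an epitope-tagged ribosomal protein is pulled down from cells that had switched on Fos. Male C57BL/6J mice of 3 to 5 months, labelled cFos-Cre:Ribotag, received into the hippocampus one AAV with a tamoxifen-dependent Cre driven by the c-Fos promoter and another with a Cre-dependent HA-mRpl22 under the EF1a promoter. All mice of both groups were sleep deprived for 5 h on day 0, when 4-hydroxytamoxifen opened the tagging window. On day 7 the sleep deprived group (SD) was kept awake for 5 h from ZT0 by gentle handling and the NSD group was left to sleep, and tissue was taken at ZT5. CA1 was dissected from 10 mice per group and pooled by 5, which gave 2 libraries per group (NSD 1, NSD 2, SD 1 and SD 2), and the labels give libraries 1 and 2 the batch numbers 1 and 2. NSD mice had thus been sleep deprived once and carried the same viruses and tamoxifen. Tagging depended on c-Fos promoter activity, on viral uptake and on the EF1a promoter, and the pools hide differences between single mice. The labels name the dorsal hippocampus as the tissue. No library of unpurified CA1 was analysed here, so the levels have no reference to the whole tissue.

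Microglia are the resident macrophages of the brain parenchyma. They depend on the receptor CSF1R and its ligands CSF1 and IL-34, sense neurons through CX3CR1 and purinergic receptors, and clear debris and synapses with the help of complement and phagocytic receptors. Border macrophages live along vessels and in the meninges, and carry scavenger receptors that microglia mostly lack.

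Total estimated counts were 162943863, 153511705, 181914848 and 195910235 in NSD 1, NSD 2, SD 1 and SD 2. Levels are given as CPM, counts set to one common library total with edgeR's TMM factors, and levels of different genes are compared as CPM per kb of the canonical transcript, or of the union of exons where named, while sums over a list and a gene's part in them are in CPM. The p-values rest on the spread between pools of 5 mice, and each gene's variance is drawn toward that of other genes in the fit. Microglial genes took 0.0238%, 0.0185%, 0.0235% and 0.0168% of all counts in NSD 1, NSD 2, SD 1 and SD 2.

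The median level of the microglial genes lay well below the medians of the neuronal, astrocyte and oligodendrocyte marker lists. The median level of the 27 microglial genes was 1.97 CPM per kb and that of the 4 border genes 0.168 CPM per kb. The same median was 50.6 CPM per kb for 10 CA1 pyramidal neuron markers, 35.9 for 9 interneuron markers, 19.0 for 10 oligodendrocyte markers and 11.6 for 12 astrocyte markers. Precursors of oligodendrocytes (6 markers, 3.41 CPM per kb) stood nearer to microglia, while endothelial (12 markers, 0.968 CPM per kb) and mural cells (9 markers, 0.369 CPM per kb) lay below them. With the union of all annotated exons as the length, the median was 1.11 CPM per kb for the microglial genes and 0.121 for the border genes, beside 37.1 for CA1 pyramidal neuron, 6.74 for astrocyte, 1.97 for precursor and 0.652 for endothelial markers, in the same order. Single markers departed far from these medians. None of the 31 genes was at 0 in any library. Defining microglial genes such as Cx3cr1, P2ry12, Tmem119 and C1qa were thus all measured, and counts per library ran from 100 (Aif1 in SD 2) to 8165 (Ctss in SD 1) over the 27 microglial genes.

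PU.1, the product of the member Spi1, is the transcription factor that sets up the macrophage lineage, and it binds DNA around the letters AGGAAGT, a core it shares with other ETS factors. These letters were searched on both strands in the 250 bases before the canonical start of each gene (GRCm39, GENCODE M39). They were found in 8 of the 31 members (25.8%), C1qb, C1qc, Fcer1g, Lyz2, Mrc1, P2ry12, Ptprc and Sall1, and in 6.53% of the promoters of 15534 protein-coding genes. The longer GAGGAAGT, which overlaps the shorter motif, was found in 2 of 31 members (6.45%), C1qc and Fcer1g, against 1.99% of promoters. The windows below are shown because they lie upstream of the annotated gene and belong to members of 4 different roles, a surface receptor, complement, an adaptor and a border receptor. Capitals mark the motif, read on the strand of the gene, so that ACTTCCT is the motif on the opposite strand. A match of letters is a description and no binding was measured.
P2ry12 (chr3:59170432-59170478, minus strand): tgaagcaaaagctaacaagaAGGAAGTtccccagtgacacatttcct
C1qb (chr4:136613538-136613584, minus strand): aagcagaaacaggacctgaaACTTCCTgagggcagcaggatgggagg
C1qc (chr4:136620394-136620440, minus strand): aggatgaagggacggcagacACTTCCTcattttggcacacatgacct
Fcer1g (chr1:171062250-171062296, minus strand): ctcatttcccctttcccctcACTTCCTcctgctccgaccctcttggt
Mrc1 (chr2:14233994-14234040, plus strand): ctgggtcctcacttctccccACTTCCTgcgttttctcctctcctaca

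The motif stood 29 to 23 bases before the start in P2ry12, 53 to 47 bases before it in C1qb and 44 to 38 bases before it in C1qc. In Fcer1g it stood 57 to 51 bases and in Mrc1 137 to 131 bases before the start. None of these 5 genes was called between SD and NSD (below), and the members with and without the motif were not compared.

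To ask whether a second sleep deprivation changed these genes, SD and NSD were compared with edgeR's quasi-likelihood test over 22338 genes that exceeded 5 counts in each of the 4 libraries, with Benjamini-Hochberg adjustment over all of them. Genes were called where the adjusted p was below 0.05 and the fold change above 1.2. Pf4 had too few counts, so 30 members were tested. No member was called higher and none lower, with adjusted p of 0.260 to 0.999, against 3.10% of all genes called either way. One member had an unadjusted p under 0.05 (Cd163), and DESeq2 also called 0 members, with a lowest adjusted p of 0.278, against 9.35% of the genes to which it gave an adjusted p. With the batch number as a replicate block, 0 members were called against 11.5% of all genes. The median log2 fold change was -0.085 for the 27 microglial genes (5 above 0 and 22 below) and 0.352 for the 3 border genes tested (3 above 0). It was -0.016 for all genes (10533 above 0 and 11805 below). With a library left out the microglial median ran from -0.377 to 0.154.

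The precision differed between genes. Standard errors of the log2 fold change ran from 0.129 (Cx3cr1) to 0.527 (Cd163). The 95% interval lay within a log2 fold change of 1 either way for 26 of the 30 members and for 25 of the 27 microglial ones, so for these both a doubling and a halving lay outside the interval. In these pull-downs from pooled mice fewer cells of a type and less RNA per cell cannot be told apart. RNA of untagged cells carried over in the pull-down was not measured.

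**Figure D1:**
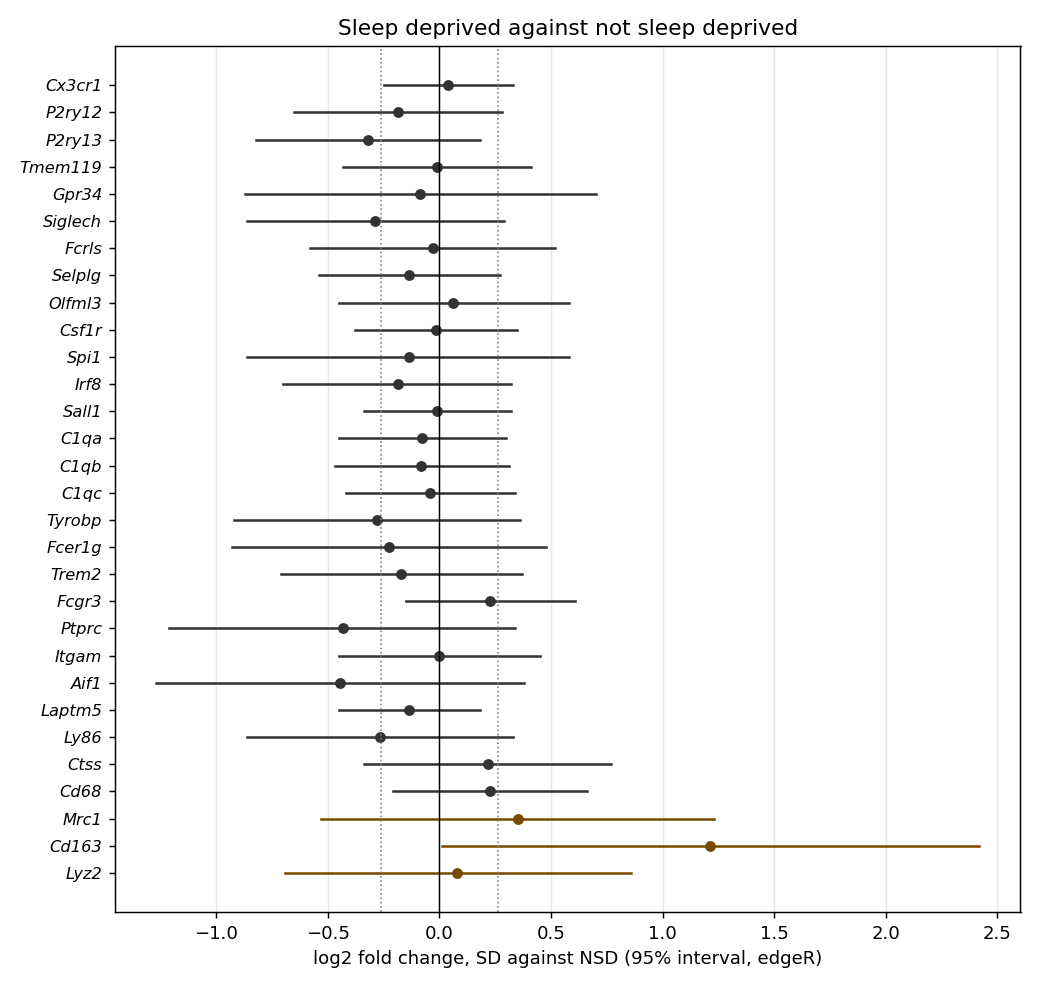
Log2 fold change of SD against NSD for the 30 members tested, on the horizontal axis, with the 95% interval of the edgeR fit; dotted lines mark a fold change of 1.2 either way and brown marks the border macrophage genes. The intervals cross 0 for every member except Cd163, whose interval ran from 0.01 to 2.42 and whose adjusted p was 0.260.

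The homeostatic surface and secreted genes, which mark resting microglia, comprised 9 members, and 0 were called. Cx3cr1, the receptor for the neuronal chemokine fractalkine, was the highest of them per length, at 4.81 CPM per kb. Its level was 19.3 CPM in NSD 1, 16.4 in NSD 2, 20.5 in SD 1 and 16.2 in SD 2. The groups overlapped, with both first libraries above both second libraries. The group means were 17.8 ± 2.05 and 18.3 ± 3.03 CPM (NSD and SD, standard deviation, n = 2), a log2 fold change of 0.04 (SE 0.129, edgeR adjusted p = 0.917). P2ry12, the ADP receptor that steers microglial processes, had 4.25 and 3.35 CPM in NSD 1 and NSD 2 and 3.77 and 2.92 CPM in SD 1 and SD 2. SD 2 was the lowest library and the groups overlapped (log2 fold change -0.185, SE 0.204, edgeR adjusted p = 0.711). P2ry13, a related ADP receptor, had 3.48 and 2.97 CPM in NSD and 2.99 and 2.18 CPM in SD, in library order. Its SD 1 and NSD 2 values were nearly level and SD 2 was lowest. Its log2 fold change of -0.32 (SE 0.218) was the lowest of the 9 and did not pass the test (edgeR adjusted p = 0.501).

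Tmem119, a membrane protein used as a microglial marker, had 6.18 and 4.98 CPM in NSD and 6.33 and 4.76 CPM in SD. The first libraries were again the higher ones, and the log2 fold change was -0.01 (SE 0.183). Siglech, a sialic acid-binding lectin, had 3.94 and 2.56 CPM in NSD and 3.01 and 2.32 CPM in SD. NSD 1 stood apart from the other 3 libraries. Siglech had a log2 fold change of -0.29 (SE 0.252, edgeR adjusted p = 0.618). Fcrls, an Fc receptor-like protein, had 3.36, 2.93, 3.77 and 2.41 CPM in NSD 1, NSD 2, SD 1 and SD 2. Selplg, the ligand of P-selectin, had 5.37, 4.59, 5.09 and 3.98 CPM in the same order. Olfml3, a secreted glycoprotein, had 4.24, 3.42, 4.80 and 3.19 CPM. The groups overlapped in these 3 genes, with SD 2 the lowest library each time. Gpr34, a receptor for lysophosphatidylserine, had 1.19 and 1.44 CPM in NSD and 1.61 and 0.867 CPM in SD. Here NSD 2 exceeded NSD 1, and the 2 SD libraries were the highest and the lowest of the 4. Summed over the 9 genes, the level was 51.3, 42.6, 51.8 and 38.8 CPM in NSD 1, NSD 2, SD 1 and SD 2.

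The second role comprised the growth factor receptor and 3 transcription factors of the lineage, again with 0 calls. Csf1r, the receptor on which microglial survival depends, had 23.6 and 17.9 CPM in NSD and 23.5 and 17.6 CPM in SD. The group means were 20.8 ± 4.05 and 20.5 ± 4.15 CPM (standard deviation, n = 2). The difference between the groups was far smaller than the difference between the libraries of 1 group (log2 fold change -0.02, SE 0.16, edgeR adjusted p = 0.974). Its exons share 1461 bases with Hmgxb3 on the other strand, which had 54515 counts over the 4 libraries against 14294 for Csf1r, and whether the counting used strand is not given in the sources used here. Spi1, which encodes PU.1, had 1.27 and 1.08 CPM in NSD and 1.29 and 0.846 CPM in SD. Irf8, a partner of PU.1, had 6.77 and 5.83 CPM in NSD and 6.88 and 4.19 CPM in SD. Both were level in the first libraries of the groups and lowest in SD 2.

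Sall1, a zinc finger factor that keeps microglial identity, behaved differently between libraries. It had 29.3 and 20.7 CPM in NSD and 26.0 and 23.7 CPM in SD. The NSD libraries enclosed the SD libraries, and NSD 2 rather than SD 2 was lowest (log2 fold change -0.01, SE 0.145). Per length, Sall1 (4.46 CPM per kb) stood above the surface receptor P2ry12 (1.49 CPM per kb) by 2.64 to 3.47 times in the 4 libraries and near Cx3cr1, at 0.849 to 1.02 times its level. Spi1 was at 0.553 CPM per kb and Irf8 at 1.17 CPM per kb.

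The C1q chains, A, B and C, are assembled into the molecule that starts the classical complement cascade and is made in the brain mainly by microglia. Their genes lie side by side on chromosome 4. C1qa had 18.6 and 13.9 CPM in NSD and 17.5 and 13.3 CPM in SD. C1qb had 11.8 and 10.8 CPM in NSD and 12.7 and 8.67 CPM in SD. C1qc had 13.1 and 10.5 CPM in NSD and 13.3 and 9.62 CPM in SD. All 3 were lowest in SD 2 and all 3 had overlapping groups, with log2 fold changes of -0.08 (SE 0.164), -0.08 (SE 0.169) and -0.04 (SE 0.167) and edgeR adjusted p of 0.866, 0.864 and 0.938. The chains kept close ratios of CPM per kb across libraries. C1qa stood at 3.01 to 3.66 times C1qb, C1qa at 2.24 to 2.42 times C1qc, and C1qb at 0.659 to 0.75 times C1qc. With union exon lengths these ratios were 5.01 to 6.09, 2.34 to 2.53 and 0.413 to 0.47. Per length C1qa reached 14.6 CPM per kb, C1qc 6.28 CPM per kb and C1qb 4.35 CPM per kb.

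Adaptors with an ITAM, a tyrosine motif that recruits the kinase Syk, and the receptors that signal through them made up 4 members. Tyrobp, the adaptor DAP12, had 1.23 and 1.39 CPM in NSD and 1.21 and 0.957 CPM in SD. Trem2, the lipid-sensing receptor that signals through it, had 3.02 and 2.41 CPM in NSD and 2.82 and 2.00 CPM in SD. Fcer1g, the Fc receptor gamma chain, had 1.91 and 1.85 CPM in NSD and 2.07 and 1.14 CPM in SD. The groups did not overlap for Tyrobp, although SD 1 lay just below NSD 1, and Trem2 and Fcer1g overlapped. None passed the test, with log2 fold changes of -0.28 (SE 0.28), -0.17 (SE 0.238) and -0.23 (SE 0.308) and edgeR adjusted p of 0.679, 0.780 and 0.772.

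Fcgr3, a low-affinity IgG receptor that signals through Fcer1g, had the opposite order. It had 3.17 and 3.08 CPM in NSD and 3.67 and 3.66 CPM in SD. The SD libraries were both higher than the NSD libraries, and the libraries of each group were nearly level. The group means were 3.13 ± 0.0649 and 3.66 ± 0.0061 CPM (standard deviation, n = 2), and the log2 fold change of 0.23 (SE 0.168) did not pass the test (edgeR adjusted p = 0.537). The ratio of Fcgr3 to Fcer1g in CPM per kb was 1.03, 1.03 and 1.1 in NSD 1, NSD 2 and SD 1 and 2.0 in SD 2 (0.624, 0.623, 0.663 and 1.21 with union exon lengths). The related Fcgr2b had 274 to 431 counts and Fcgr4 65 to 170 counts per library, and how reads were divided between these relatives was not tested.

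The pan-leukocyte and pan-myeloid genes are shared by microglia with other immune cells. Ptprc, which encodes the phosphatase CD45, had 4.83 and 3.79 CPM in NSD and 4.44 and 1.95 CPM in SD. SD 2 stood far below the other 3 libraries. The log2 fold change was -0.43 (SE 0.339, edgeR adjusted p = 0.570), -1.14 (SE 0.276, adjusted p = 0.00079) without SD 1, where 9.85% of all genes were called, and 0.06 without SD 2. The lower mean of Ptprc in SD therefore rested on SD 2, and its ratio to Cx3cr1 in CPM per kb was 0.183, 0.169, 0.159 and 0.0881 in NSD 1, NSD 2, SD 1 and SD 2 (0.0298 to 0.0621 with union exon lengths). Itgam, the CD11b integrin chain, had 7.10 and 5.81 CPM in NSD and 7.69 and 5.21 CPM in SD. The SD libraries enclosed the NSD libraries, and the log2 fold change was -0.001 (SE 0.197).

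Aif1, which encodes the cytoskeletal protein IBA1, was the lowest microglial gene per length (0.244 CPM per kb). It had 0.893 and 1.03 CPM in NSD and 0.885 and 0.529 CPM in SD. The groups did not overlap, but SD 1 lay just below NSD 1 and only SD 2 was clearly lower. The log2 fold change was -0.44 (SE 0.359, edgeR adjusted p = 0.585). Its exons share 703 bases with the antisense gene Gm17705, which had 284 counts over the 4 libraries against 570 for Aif1. Laptm5, a lysosomal membrane protein of blood cells, had 11.7 and 9.72 CPM in NSD and 10.7 and 8.84 CPM in SD. Ly86, a partner of a Toll-like receptor relative, had 2.51 and 2.10 CPM in NSD and 2.30 and 1.53 CPM in SD. Both had overlapping groups with SD 2 lowest, and log2 fold changes of -0.13 (SE 0.137) and -0.27 (SE 0.258).

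Ctss and Cd68 belong to the lysosome. Ctss, a cathepsin protease, was the member with the highest level per length (25.0 CPM per kb). It had 38.9 and 24.2 CPM in NSD and 45.2 and 28.3 CPM in SD. The second libraries lay well below the first in both groups, and within each batch the SD library was the higher one, by 0.21 on the log2 scale in batch 1 and 0.22 in batch 2. The log2 fold change of 0.22 (SE 0.243) gave an edgeR adjusted p of 0.717, and 0.0343 with the replicate block, a change of less than 1.2-fold that was not called. Without SD 2 the log2 fold change was 0.53 (SE 0.117, adjusted p = 0.000526, with 4.77% of all genes called), and it was -0.16 without SD 1 and -0.08 without NSD 2. Cd68, a scavenger receptor of lysosomes, had 2.39 and 2.30 CPM in NSD and 2.77 and 2.72 CPM in SD. Neither SD library overlapped the NSD range, with a log2 fold change of 0.23 (SE 0.191, edgeR adjusted p = 0.604).

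Among the border macrophage genes, Mrc1, Pf4 and Cd163 were scarce, at 0.0233 to 0.265 CPM per kb, while Lyz2 (2.28 CPM per kb) lay above the microglial median. Mrc1, the mannose receptor, had 1.75 and 0.802 CPM in NSD and 1.34 and 1.92 CPM in SD. The order of the libraries was unlike that of the microglial genes, with SD 2 highest and NSD 2 lowest. Its log2 fold change was 0.35 (SE 0.384, edgeR adjusted p = 0.708). Pf4, a platelet chemokine that border macrophages also make, had counts of 11 and 3 in NSD and 4 and 6 in SD and was not tested. Cd163, the haptoglobin-hemoglobin scavenger receptor, had 37 and 25 counts in NSD and 110 and 53 counts in SD. Its level was 0.223 and 0.159 CPM in NSD and 0.609 and 0.280 CPM in SD, so the groups did not overlap and SD was higher. The group means were 0.191 ± 0.0453 and 0.444 ± 0.232 CPM (standard deviation, n = 2). The log2 fold change of 1.21 (SE 0.527, edgeR unadjusted p = 0.0492) did not pass the test (edgeR adjusted p = 0.260). SD 1 alone held the highest value, and without it the log2 fold change was 0.55.

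Lyz2, lysozyme of peripheral myeloid cells and border macrophages, had 6.51 and 6.74 CPM in NSD and 10 and 4.02 CPM in SD. The NSD libraries were level, and the SD libraries were the highest and the lowest of the 4. The log2 fold change was 0.08 (SE 0.339, edgeR adjusted p = 0.938), 0.61 without SD 2 and -0.72 without SD 1. The direction of Lyz2 was thus set by which SD library was kept. Its near relative Lyz1 had 0 to 9 counts per library. The summed level of the 4 border genes was 8.55 and 7.72 CPM in NSD and 12.0 and 6.25 CPM in SD. Lyz2 made up most of that sum.

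**Figure D2:**
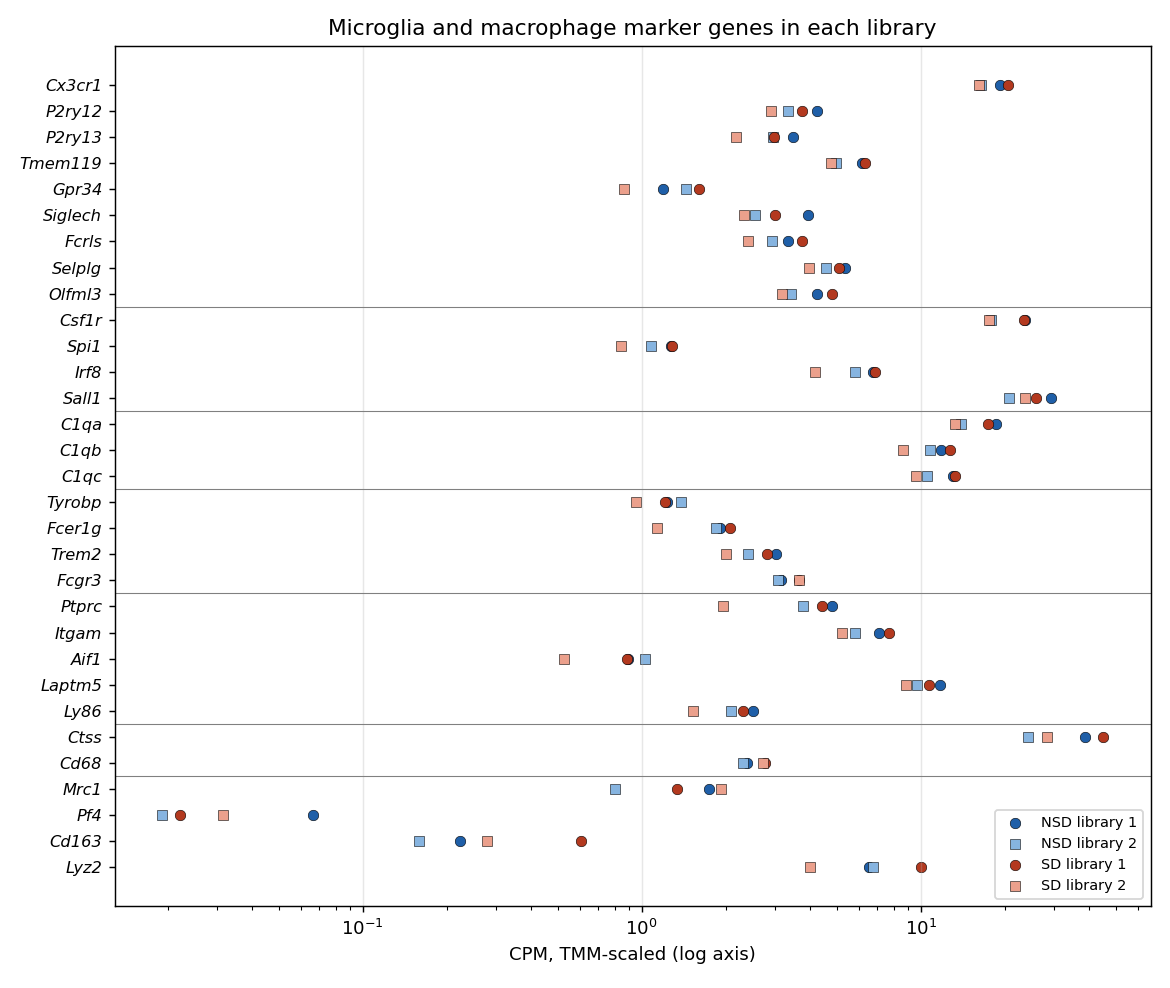
Level of each of the 31 genes in the 4 libraries in TMM-scaled CPM on a log axis, blue for NSD and red for SD, circles for library 1 and squares for library 2; lines part the roles. For most microglial genes the squares lie left of the circles of both colours, as for Csf1r (23.6 and 17.9 CPM in NSD, 23.5 and 17.6 CPM in SD), while Fcgr3 and Cd68 part by group.

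Few members had groups that did not overlap. The SD libraries were both higher than either NSD library in 3 of 30 members (Fcgr3, Cd68 and Cd163), where 22.0% of all genes did so, and below them in 2 (Tyrobp and Aif1), where 27.5% of all genes did so. Both shares of the members were below those of all genes.

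For 23 of the 27 microglial genes the log2 difference between the batches was larger in size than that between the groups, and for Tyrobp, Fcgr3, Aif1 and Cd68 it was not; the 2 differences were not tested against each other. Library 1 exceeded library 2 in both groups for 25 of the 30 members tested and for 24 of the 27 microglial genes, against 33.2% of all genes, and no member had library 2 higher in both groups. The 5 exceptions were Gpr34, Tyrobp, Aif1, Mrc1 and Lyz2. The median ratio of library 1 to library 2 was 1.2 in NSD and 1.4 in SD over the 30 members, and 1.01 in each group over all genes. SD 2 was the lowest library for 24 of the 30 members and for 7178 of the 22338 genes tested. The 6 members lowest in NSD 2 instead were Sall1, Fcgr3, Ctss, Cd68, Mrc1 and Cd163.

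In the fit with the replicate block, the batch term was tested after this order of the libraries had been seen. It called 3 members higher in batch 1, against 0.837% of all genes called that way, and 0 members higher in batch 2. These were Ctss, with a log2 difference of 0.68 (SE 0.0632, edgeR adjusted p = 0.000141), Csf1r, with 0.41 (SE 0.0721, adjusted p = 0.0170), and C1qa, with 0.41 (SE 0.0795, adjusted p = 0.0297). C1qc, with a log2 difference of 0.39 (SE 0.0921), just missed (adjusted p = 0.0708). The median log2 difference between the batches was 0.39 over the microglial genes and 0.02 over all genes. The batches hold 1 library of each group, and the labels do not say what the libraries of a batch shared. Within 1 group a pool of mice and a batch cannot be told apart.

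**Figure D3:**
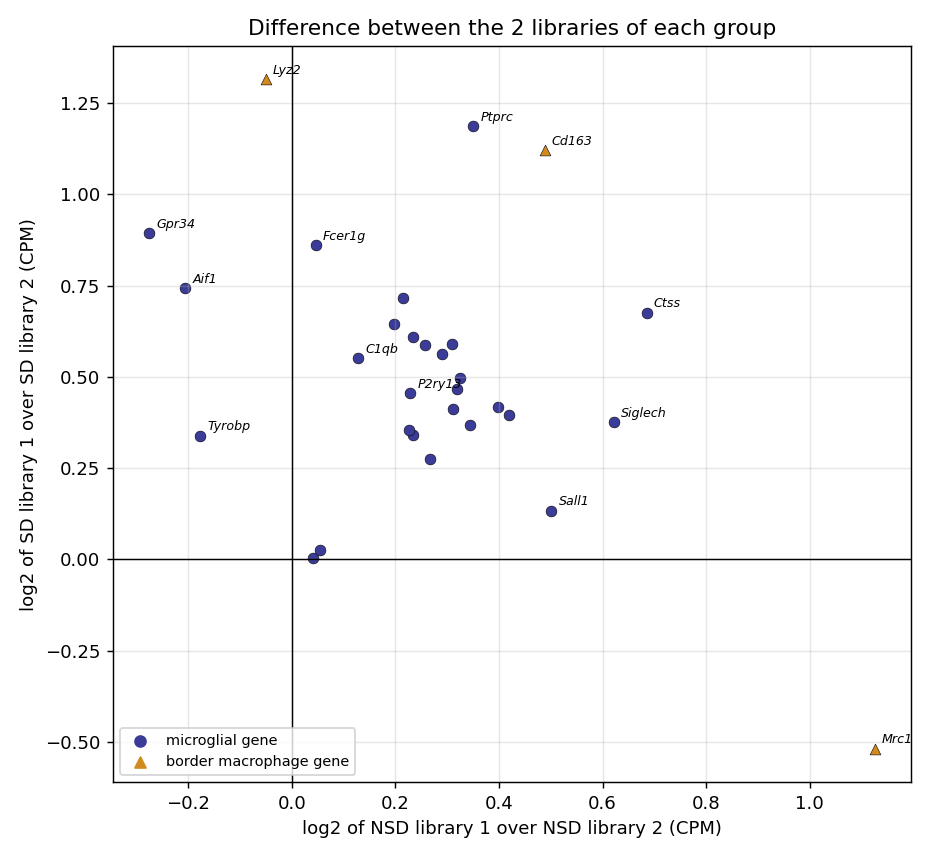
Log2 ratio of library 1 to library 2 in CPM within NSD (horizontal) and within SD (vertical) for the 30 members tested, circles for microglial and triangles for border macrophage genes, with names on points that stand apart. Of the 30 points 25 lie above 0 on both axes, and Mrc1, Lyz2, Gpr34, Aif1 and Tyrobp lie outside that field.

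Within batches the median difference of SD and NSD had different signs. The median log2 difference of SD 1 and NSD 1 over the 27 microglial genes was 0.02, with 14 above 0 and 13 below, and that of SD 2 and NSD 2 was -0.20, with 4 above and 23 below. Over all genes tested these medians were -0.01 and -0.03. The 9 homeostatic genes were all lower in SD 2 than in NSD 2, while 5 of them were higher in SD 1 than in NSD 1. SD was the lower library in both batches for 12 microglial genes, among them Laptm5 (log2 differences of -0.13 and -0.14), P2ry12 (-0.17 and -0.20) and C1qa (-0.09 and -0.06). It was the higher one in both for 3, Fcgr3 (0.21 and 0.25), Cd68 (0.21 and 0.24) and Ctss (0.21 and 0.22). The matching shares over all genes were not computed. Among the border genes Cd163 was higher in SD in both batches (1.4 and 0.77), while Mrc1 (-0.38 and 1.25) and Lyz2 (0.62 and -0.74) changed sign.

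Summed over the 27 microglial genes, the level was 233 and 181 CPM in NSD and 237 and 174 CPM in SD, a log2 ratio of the group means of -0.01. Library 1 exceeded library 2 in both groups for 8 of 10 oligodendrocyte, 5 of 6 oligodendrocyte precursor and 8 of 9 interneuron markers, but for 4 of 12 astrocyte, 4 of 9 mural, 1 of 12 endothelial and 0 of 10 CA1 pyramidal markers. Markers of oligodendrocytes summed to 1950 and 1620 CPM in NSD and 1880 and 1790 CPM in SD, those of oligodendrocyte precursors to 141, 122, 145 and 134 CPM in the same order, and those of interneurons to 928, 883, 911 and 816 CPM. Astrocyte markers summed to 3750, 3260, 3860 and 3870 CPM, most of it Slc1a2, and to 752, 674, 755 and 723 CPM without that gene. CA1 pyramidal markers summed to 6500 and 6840 CPM in NSD and 6260 and 6730 CPM in SD, with the second libraries higher.

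Vessel and blood cell markers were set beside the border genes. Endothelial markers summed to 59.0 and 81.7 CPM in NSD and 49.0 and 31.5 CPM in SD, so that both SD libraries were lower (log2 ratio -0.81), and mural markers to 70.4, 66.3, 62.4 and 52.5 CPM. Of the 12 endothelial markers 0 were called in the main fit, against 3.10% of all genes. With the replicate block 7 were called lower, against 11.5% of all genes called either way, and DESeq2 called 5, against 9.35%. The border genes did not share the order of the vessel markers, since their sum was highest in SD 1. Without Lyz2 that sum was 2.04, 0.98, 1.97 and 2.23 CPM in NSD 1, NSD 2, SD 1 and SD 2, highest in SD 2. Lymphocyte and plasma cell markers summed to 16.8, 17.6, 19.8 and 12.8 CPM, and nearly all of this was Jchain, the joining chain of secreted antibodies (14.4, 15.6, 17.8 and 11.8 CPM). The other 8 markers summed to 2.42, 1.99, 2.04 and 1.08 CPM, highest in NSD 1 and lowest in SD 2. Neutrophil markers, of which 3 of 6 were in the table, summed to 0.0166 to 0.185 CPM per library, and red blood cell markers, 3 of 5, to between 1.2 and 2.24 CPM. The part of these cells in the levels of Lyz2 and Ptprc was not tested.

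**Figure D4:**
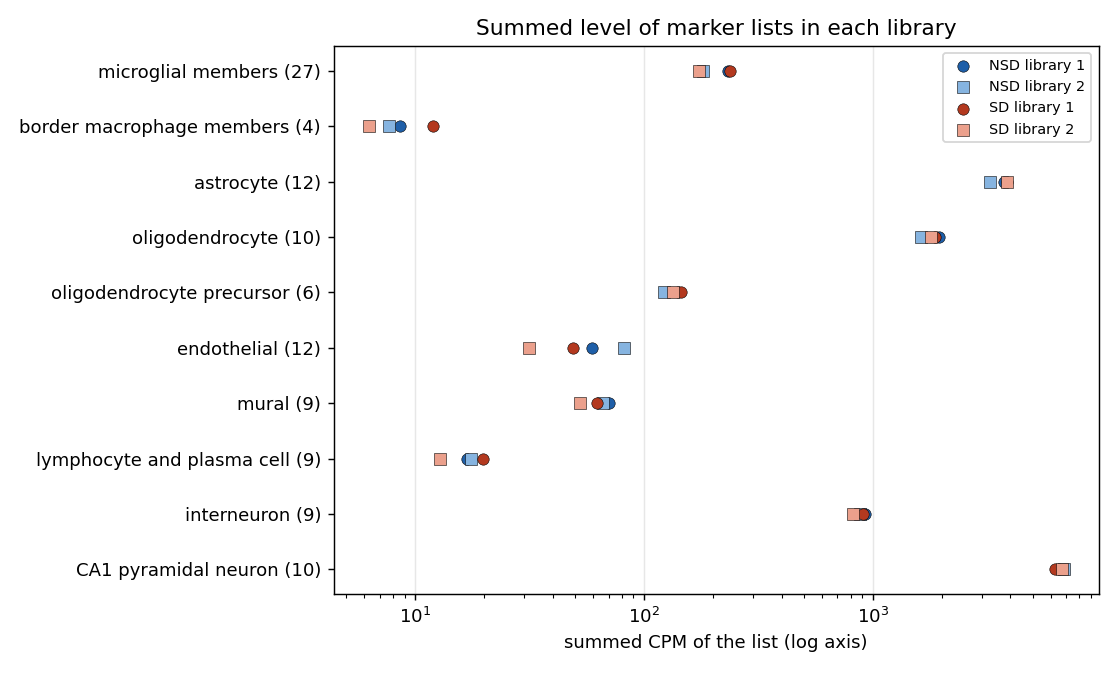
Summed CPM of each marker list in the 4 libraries on a log axis, with the number of genes in brackets and the same colours and shapes as in the plot of the members' levels. The microglial sum lies at 233 and 237 CPM in the first libraries and at 181 and 174 CPM in the second ones, while the CA1 pyramidal sum spans 6260 to 6840 CPM.

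Other genes of the same pathways were read from 4 lists of 78 genes, of which 75 were tested. In all 0 were called higher and 1 lower, against 3.10% of all genes called either way. The 35 other microglial receptor and signalling genes had 0 calls and a median log2 fold change of -0.065, and library 1 exceeded library 2 in both groups for 32 of them. The 21 disease-associated and inflammatory genes tested had a median of -0.068 and held the single call, Lpl, the lipoprotein lipase, which neurons also make. Its level was 30.1 and 34.7 CPM in NSD and 18.3 and 19.0 CPM in SD, with both SD libraries lower (log2 fold change -0.79, SE 0.0902, edgeR adjusted p = 0.0328). The call was lost with filterByExpr (adjusted p = 0.0628) and held under each of the other alternatives, with a library left out too. The 8 other border macrophage genes tested had 0 calls and a median of -0.117.

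Ligands and partner proteins that other cells present to microglia comprised 11 genes, with 0 calls and a median log2 fold change of -0.012. Cx3cl1, the neuronal ligand of CX3CR1, had 684 and 851 CPM in NSD and 755 and 861 CPM in SD. Per length it reached 238 CPM per kb, beside 4.81 CPM per kb for its receptor Cx3cr1, and it was higher in the second libraries where Cx3cr1 was higher in the first. Il34, the neuronal ligand of CSF1R, had 13.8 and 14.7 CPM in NSD and 15.6 and 16.7 CPM in SD. The SD values were the 2 highest, and the log2 fold change of 0.18 (SE 0.0913) did not pass the test (edgeR adjusted p = 0.337). Csf1, the other ligand, had 17.4 and 15.0 CPM in NSD and 16.8 and 12.2 CPM in SD, in the batch order of the microglial genes. Cd200, a neuronal surface protein that restrains microglia, had 54.5 and 51.0 CPM in NSD and 54.5 and 54.2 CPM in SD, a log2 fold change of 0.04 (SE 0.0676). Tgfb1, a cytokine that microglia need and make, had 2.73 and 2.27 CPM in NSD and 2.21 and 1.78 CPM in SD, with a log2 fold change of -0.33 (SE 0.225, edgeR adjusted p = 0.506).

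Per length, the order of the microglial genes began with Ctss, C1qa, C1qc, Cx3cr1, Sall1, C1qb, Laptm5 and Csf1r, from 25.0 to 3.41 CPM per kb. The per-library range of Ctss (17.7 to 33.1 CPM per kb) cleared that of C1qa (12.2 to 17.1), and C1qa cleared C1qc (5.19 to 7.19). Within each library C1qc exceeded Cx3cr1 by 1.2 to 1.37 times per length, and Cx3cr1 exceeded C1qb by 1.02 to 1.26 times. Sall1 changed places with both neighbours between libraries, at 0.849 to 1.02 times Cx3cr1 and 0.871 to 1.24 times C1qb, so its place among them was not resolved on this length. With the union of all annotated exons as the length, C1qa (9.83 CPM per kb) stood above Ctss (6.44 CPM per kb), and C1qc stood at 0.967 times Cx3cr1 in SD 2. On that length Cx3cr1 stood at 2.04 to 2.51 times and Sall1 at 1.76 to 2.5 times C1qb, and C1qb (1.76 CPM per kb) lay below Csf1r (2.80) and Laptm5 (2.45). At the other end Gpr34 (0.513 CPM per kb) and Spi1 (0.553 CPM per kb) lay above Aif1. P2ry12 shares 294 exon bases with Med12l on the opposite strand, which had 63023 counts over the 4 libraries against 2466 for P2ry12. For this gene, as for Csf1r and Aif1, reads of the partner could enter the level if strand was not used. Itgam shares 3450 exon bases with Gm49368 on the same strand, which had 13.3 counts against 4466 for Itgam. Cx3cr1 shares 78 exon bases with the opposite-strand Gm33858 (127 counts). C1qb, C1qc, Laptm5, Lyz2, Olfml3, Sall1, Selplg and Trem2 share exon bases with opposite-strand genes for which no counts were found.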

How the data were processed

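The authors trimmed reads in Partek Flow, aligned them with STAR to mm39 and deposited estimated counts per gene from Partek's E/M model with Ensembl release 110, without normalization. In the deposited table of 28193 genes, 55.6% had a value that was not whole, so counts were rounded. All value columns matched a sample (0 did not). Genes that exceeded 5 counts in each library were fitted with edgeR 4.0.16 in R 4.3.3 (TMM, quasi-likelihood, condition as the only term), with Benjamini-Hochberg adjustment over 22338 genes. Calls used an adjusted p below 0.05 and 1.2-fold as limits, which are those of the study, where DESeq2 was used. TMM factors were 0.9654 to 1.024, and the fit was tested on simulated data. CPM per kb used the canonical transcript of GENCODE M39.

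Batch and replicate numbers in the labels are the same, and they pair 1 NSD with 1 SD library. Across genes, paired libraries deviated from their groups with a correlation of 0.178. Alternatives were the replicate block, DESeq2 1.42.0, DESeq2 size factors, no count filter, filterByExpr, protein-coding genes only and each library left out, and, for summed levels, unscaled library totals and the sum without its most abundant member. Leaving out a library leaves 1 in a group, which is assumed to vary like the other group. The test of the batch term, within-batch differences, union exon lengths and sums of marker lists without their most abundant gene were chosen after seeing the data. All members are named, and other pathway genes by list. The members and lists were chosen with earlier results of these data known. Libraries held 153511705 to 195910235 counts, and counting error was not separated from the spread between pools.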

Additional observations from a re-analysis of the deposited data

How the results depend on the processing

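With 2 libraries per group, single libraries set most directions. All genes called higher numbered 172, with 668 under the replicate block, 671 with DESeq2, 50 without a count filter, 1 with filterByExpr and 51 among protein-coding genes, and 144 to 321 with a library left out. Genes called lower numbered 520, then 1891, 1296, 80, 0 and 39 in the same order, and 87 (without NSD 1) to 1953 (without SD 1). Members called stayed at 0 in each of these settings that kept all libraries. Without SD 2 the log2 fold change was 0.53 for Ctss and 0.61 for Lyz2, and without SD 1 it was -1.14 for Ptprc and -0.72 for Lyz2. Calls arose for these genes, but those fits hold 1 SD library. With a library left out, the median log2 fold change ran from -0.377 to 0.154 for the microglial genes, -0.349 to 0.157 for all members and 0.107 to 1.053 for the border genes, and the log2 ratio of summed border levels from -0.38 to 0.56. Log2 fold changes near 0 turned positive with DESeq2 size factors, DESeq2 and no count filter for Tmem119 (0.01, 0.01 and 0.02), Csf1r (0.00, 0.00 and 0.01), Sall1 (0.01, 0.01 and 0.02) and Itgam (0.02, 0.02 and 0.02). Sall1 was 0.01 with the replicate block, Itgam 0.01 with filterByExpr and Lyz2 -0.05 with the replicate block. The paired fit changed no call of a member. With a library left out the sign changed for 24 members: Cx3cr1 (-0.14 to 0.22), P2ry12 (-0.38 to 0.03), Tmem119 (-0.23 to 0.20), Gpr34 (-0.60 to 0.31), Siglech (-0.57 to 0.09), Fcrls (-0.38 to 0.28), Selplg (-0.32 to 0.05), Olfml3 (-0.26 to 0.34), Csf1r (-0.24 to 0.23), Spi1 (-0.47 to 0.15), Irf8 (-0.59 to 0.14), Sall1 (-0.24 to 0.29), C1qa (-0.29 to 0.18), C1qb (-0.38 to 0.19), C1qc (-0.29 to 0.19), Fcer1g (-0.72 to 0.16), Trem2 (-0.43 to 0.07), Ptprc (-1.14 to 0.06), Itgam (-0.31 to 0.27), Laptm5 (-0.28 to 0.04), Ly86 (-0.59 to 0.02), Ctss (-0.16 to 0.63), Mrc1 (-0.10 to 1.05) and Lyz2 (-0.72 to 0.61). It did not change for P2ry13, Tyrobp, Fcgr3, Aif1, Cd68 and Cd163. The cause of these shifts was not tested. Counts were low for Pf4, with 3 to 11 per library, and for Cd163, with 25 to 110.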
